A study of Mus musculus with 4 samples.

Results

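The integrin subunit genes examined here were the 10 listed members Itgav, Itga2, Itga3, Itga5, Itga6, Itgb1, Itgb3, Itgb4, Itgb5 and Itgb6, taken by name from a table of 16695 genes. All 10 were in the table, and the authors' annotation gives each of the 10 the term integrin complex. The RNA came from 4T1, a line of mouse mammary carcinoma cells. Cells were wild type (WT) or DHODH KO, with DHO WT and DHO KO in the sample titles. DHO KO is read here as a knockout of dihydroorotate dehydrogenase, a mitochondrial enzyme of pyrimidine synthesis. No treatment or time was labelled, and each genotype had 2 libraries. The labels do not say if the KO cells were 1 clone, how the gene was disrupted, or if replicates were grown apart, so p-values measure the spread between these libraries, which may be technical.

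The 4 libraries were of similar depth, with 34639043 to 37697518 reads behind the FPKM (reads scaled to gene length and to the reads of the library). Where 2 values of a genotype are given, replicate 1 comes first. Dhodh itself was listed at 10.9 and 10.3 FPKM for WT and at 9.67 and 8.69 FPKM for DHODH KO. Its RNA was still present in the KO cells, so this level does not by itself check the genotype label. Summed FPKM of 6 markers of mammary carcinoma epithelium lay between 1933 and 1957 in all 4 libraries, none of them at 0. DHODH KO replicate 2 stood apart. Of 12 heart muscle markers, Tnnt2 measured 188 to 208 FPKM in every library, whereas the other 11 summed to 0.0450 to 0.307 FPKM in the other libraries and to 88.3 FPKM in DHODH KO replicate 2, with Actc1 at 32.9 FPKM there and at 0 elsewhere. Fibroblast, kidney and endothelial marker sums were also highest in that library, at 7.48, 9.76 and 1.15 FPKM, against at most 3.20, 0.0400 and 0.133 FPKM in the others. The part of these transcripts in the integrin values was not tested. For the members, the named genes and the lists of integrin partners, calls and counts of calls that changed without this library are given with both values. Shares and counts over all genes tested, and counts of the authors' pathways, are from all 4 libraries. Counts without this library thus have no matching share beside them.

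Integrins are adhesion receptors made of an alpha and a beta subunit, which reach the cell surface only as a pair. The pairing sets the ligand. The β1 subunit joins most alpha subunits, α3 and α6 bind laminins, α2 binds collagen, and α5 and the αv pairs bind the RGD motif of fibronectin, vitronectin and related proteins. The α6β4 pair anchors epithelial cells to the basement membrane in hemidesmosomes. In carcinoma cells the set of integrins present is known for its bearing on attachment, spreading and migration.

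In DHODH KO cells the laminin receptor gene Itga3 was lower by more than 2-fold and the fibronectin receptor gene Itga5 was higher by nearly that much, with smaller differences in most other subunits. Of the 10 members, 9 had a mean of at least 1 FPKM over the 4 libraries and were tested. Itga5, Itgb5, Itgb6 and Itgav were higher and Itga3, Itga2, Itgb1 and Itgb4 lower at an adjusted p under 0.05, so 8 of 9 were called (3 higher and 3 lower without DHODH KO replicate 2), where 64.7% of the 10170 genes tested were called in either direction, 35.6% higher and 29.1% lower. Itga6 was not called. For all 9 tested members the KO values lay wholly above or wholly below the WT values, and 83.4% of all tested genes did so. The values of Itgb3, the untested member, overlapped. The median log2 fold change of the 9 was 0.06, beside 0.04 over all genes tested. Here and below, values are mean FPKM ± SD with n = 2 libraries per genotype, log2 fold changes are DHODH KO minus WT of log2(FPKM + 1) with their SE, which understates changes of genes near 1 FPKM, and adjusted p-values are from limma with Benjamini-Hochberg adjustment over all genes tested. In RNA from whole cultures, fewer cells with a transcript and less of it per cell cannot be told apart.

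**Figure D1:**
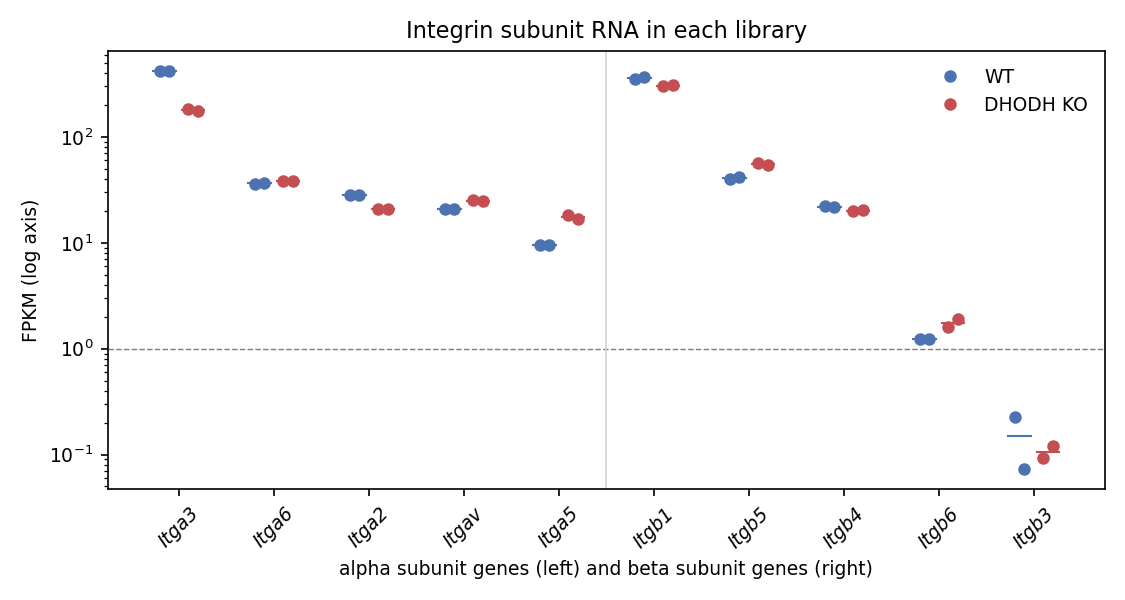
FPKM (log axis) of the 10 integrin members in each library, with a short line at each mean and a dashed line at 1 FPKM, the minimum mean for testing. Itga3 and Itgb1 lie far above the other subunits in both genotypes, Itga3 falls from 420 to 179 FPKM, and the points of Itgb3 overlap between genotypes below the dashed line.

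Itga3 encodes the alpha subunit of α3β1, a receptor for the laminins of epithelial basement membranes. It stood at 423 and 418 FPKM in WT, against 182 and 176 FPKM in KO. Both KO libraries were far below both WT libraries, a gap many times the difference within either genotype. Means of 420 ± 3.85 FPKM for WT against 179 ± 4.36 FPKM for KO made it 2.35-fold higher in WT (log2 fold change -1.23 ± 0.034, adjusted p = 7.55e-07 by limma). At least 78688 and 76141 reads stood behind the WT values and 36102 and 34907 behind the KO values, so counting error was small beside this difference.

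The other laminin receptor subunits differed little between genotypes. Itga6, whose product pairs with β1 or β4, stood at 36.2 and 36.8 FPKM in WT, against 38.3 and 38.1 FPKM in KO. The KO values were slightly the higher, by 0.06 ± 0.040 on the log2 scale with a 95% interval of -0.03 to 0.16 (adjusted p = 0.200 by limma). Itgb4, the hemidesmosome subunit that pairs only with α6, stood at 22.3 and 21.7 FPKM in WT, against 19.96 and 20.2 FPKM in KO. Its KO values lay just below both WT values (log2 fold change -0.12 ± 0.046, adjusted p = 0.0454), and the call was lost when any 1 of the 4 libraries was left out (adjusted p between 0.0687 and 0.223). The ratio of Itga3 to Itga6 was 11.7 and 11.3 in WT and 4.75 and 4.62 in KO.

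Itga2, the alpha subunit of the collagen receptor α2β1, was lower in KO. It stood at 28.2 FPKM in both WT libraries, against 20.9 and 20.7 FPKM in KO. Replicates of a genotype were nearly equal and the genotypes well apart (log2 fold change -0.42 ± 0.043, adjusted p = 0.000148 by limma), and WT was 1.35-fold higher.

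Itga5, the alpha subunit of the fibronectin receptor α5β1, had the largest rise of the members. It stood at 9.58 and 9.60 FPKM in WT, against 18.4 and 16.7 FPKM in KO. The KO libraries differed from each other more than the WT libraries did, but both were far above them, with means of 9.59 ± 0.0132 and 17.5 ± 1.25 FPKM, 1.83-fold higher in KO (0.81 ± 0.062, adjusted p = 4.11e-05 by limma). The ratio of Itga3 to Itga5 was 44.1 and 43.5 in WT and 9.88 and 10.6 in KO, and on the log2(FPKM + 1) scale the difference between genotypes was -2.03 with a within-genotype SD of 0.045. Ratios were not tested and are given as a description.

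The promoters of Itga3 and Itga5 are shown because these members had the largest fall and the largest rise. They are the 250 bases before the RefSeq start on GRCm38.p6, at chr11:95076715-95076964 for Itga3, the outer of its 2 listed starts, and chr15:103366792-103367041 for Itga5, both on the minus strand and written 5′ to 3′. Capitals mark the GC box GGGCGG on either strand, the letters bound by Sp1-family factors.
Itga3: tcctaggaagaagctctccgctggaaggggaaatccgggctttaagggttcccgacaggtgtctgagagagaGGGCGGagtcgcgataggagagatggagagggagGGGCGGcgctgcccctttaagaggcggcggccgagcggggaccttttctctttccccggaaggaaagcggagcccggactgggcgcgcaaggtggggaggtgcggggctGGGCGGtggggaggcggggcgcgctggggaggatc
Itga5: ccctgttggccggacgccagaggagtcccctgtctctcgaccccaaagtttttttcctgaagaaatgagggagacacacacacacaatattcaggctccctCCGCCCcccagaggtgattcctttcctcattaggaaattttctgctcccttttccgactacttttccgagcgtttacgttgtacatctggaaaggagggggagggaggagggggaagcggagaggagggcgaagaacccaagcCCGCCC
The Itga3 stretch held 3 matches and was 67.6% G and C, and the Itga5 stretch held 2 matches and was 55.6% G and C. Of all 32851 RefSeq promoter stretches of this length, 32.7% held at least 1. Entries were found for 7 of the 10 members, 9 in all, and Itgb5 held 3 matches, Itgb1 and the inner Itga3 start 1 each, and Itgav, Itga2 and both Itgb6 entries 0. No match on either strand was found in any of the 9 for the AP-1 letters TGANTCA, the E-box CACGTG, the hypoxia-response core ACGTG (which the E-box contains), TATAAA or the NF-kB motif, which occur in 6.75%, 6.02%, 16.6%, 12.4% and 1.41% of all stretches. These are matches of letters in 1 short window and were not tested as binding sites.

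Itgb1, the beta subunit shared by α2, α3, α5, α6 and αv, was the most abundant beta gene and slightly lower in KO. It stood at 352 and 365 FPKM in WT, against 302 and 310 FPKM in KO. The KO libraries were both below the WT libraries, but the gap was a few times the spread within genotypes rather than many (log2 fold change -0.23 ± 0.035, adjusted p = 0.00104 by limma). WT was 1.17-fold higher in Itgb1, against 2.35-fold in Itga3.

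Of the αv receptors, Itgav and its partner Itgb5 were both higher in KO. Itgav stood at 20.9 and 20.7 FPKM in WT, against 25.4 and 24.7 FPKM in KO, 1.203-fold higher in KO (0.26 ± 0.045, adjusted p = 0.002 by limma). Itgb5, which forms the vitronectin receptor αvβ5, stood at 40.5 and 41.8 FPKM in WT, against 57.3 and 53.9 FPKM in KO. Both genes showed every KO library above every WT library, and Itgb5 was 1.35-fold higher in KO (0.42 ± 0.045, adjusted p = 0.000171).

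Itgb6 and Itgb3, the other αv partners on the list, were low. Itgb6, an epithelial subunit whose αvβ6 pair activates latent TGF-beta, stood at 1.22 and 1.24 FPKM in WT, against 1.61 and 1.92 FPKM in KO. The KO values were higher, 1.44-fold in the mean, and unequal (0.31 ± 0.103, adjusted p = 0.0321 by limma). Without DHODH KO replicate 2, the library with heart muscle transcripts, the log2 fold change was 0.23 and the call was lost (adjusted p = 0.143), as it was without either WT library (adjusted p = 0.0976 and 0.0940). By limma voom on recovered reads, without the added 1 FPKM, the log2 fold change was 0.52. Itgb3, the β3 subunit of αvβ3 and of the platelet fibrinogen receptor, stood at 0.228 and 0.0727 FPKM in WT, against 0.0935 and 0.120 FPKM in KO, from at least 48, 15, 21 and 27 reads. Its groups overlapped, 6 platelet markers summed to 1.09 to 2.94 FPKM, and it was below the minimum for testing.

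**Figure D2:**
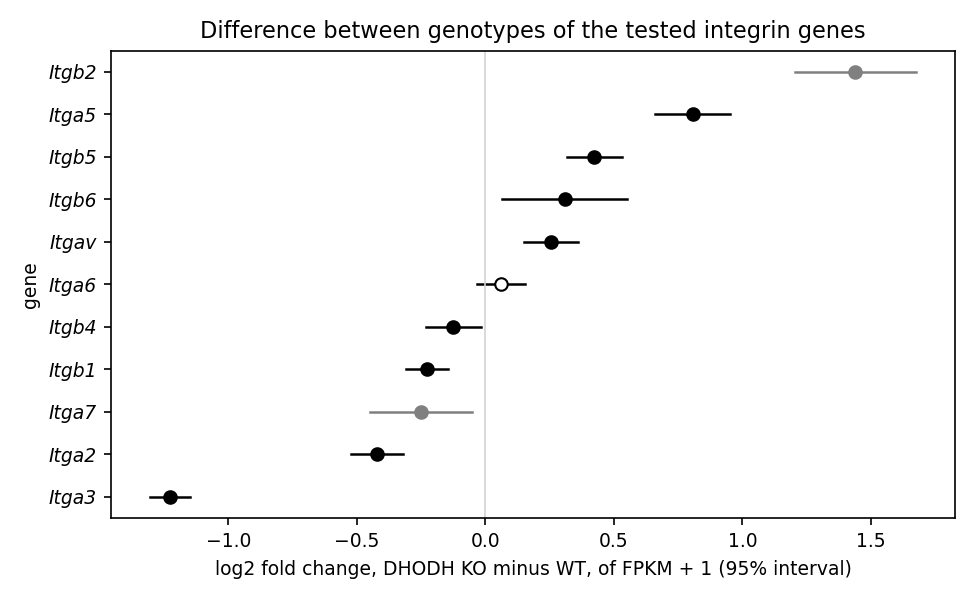
Log2 fold change of log2(FPKM + 1), DHODH KO minus WT, with its 95% interval, for the 9 tested members (black) and the 2 other integrin genes tested (grey). Filled points passed the adjusted p of 0.05 and the open point, Itga6, did not. Itga3 is lowest at -1.23, Itga5 is the highest member at 0.81, and Itgb2 lies above all of them at 1.44.

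The summed alpha RNA was lower in KO, and without Itga3 it was not. FPKM is per length, so levels of different genes can be added. The 5 alpha members summed to 518 and 513 FPKM in WT, against 285 and 276 FPKM in KO. The 5 beta members summed to 416 and 430 FPKM in WT and to 381 and 386 FPKM in KO. The alpha sum thus lay above the beta sum in both WT libraries and below it in both KO libraries, with alpha-to-beta ratios of 1.25, 1.19, 0.748 and 0.715. Without Itga3 the alpha sum averaged 95.1 ± 0.288 FPKM in WT against 102 ± 2.14 FPKM in KO.

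Itga3 made up 81.5% ± 0.183 of the alpha sum in WT and 63.8% ± 0.0767 in KO. The share of Itga5 was 1.86% ± 0.0154 in WT and 6.25% ± 0.3001 in KO, and that of Itgav 4.04% ± 0.00222 and 8.93% ± 0.0117. Itga6, which was not called, made up 7.09% ± 0.131 of the WT and 13.6% ± 0.256 of the KO sum. Shares of a sum move together by construction, so they show composition and not the change of each gene. Among the beta genes, Itgb1 made up 84.7% ± 0.275 in WT and 79.8% ± 0.678 in KO, and Itgb5 9.73% ± 0.0203 and 14.5% ± 0.742. The ratio of Itgb5 to Itgb1 was 0.115 and 0.114 in WT and 0.189 and 0.174 in KO.

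**Figure D3:**
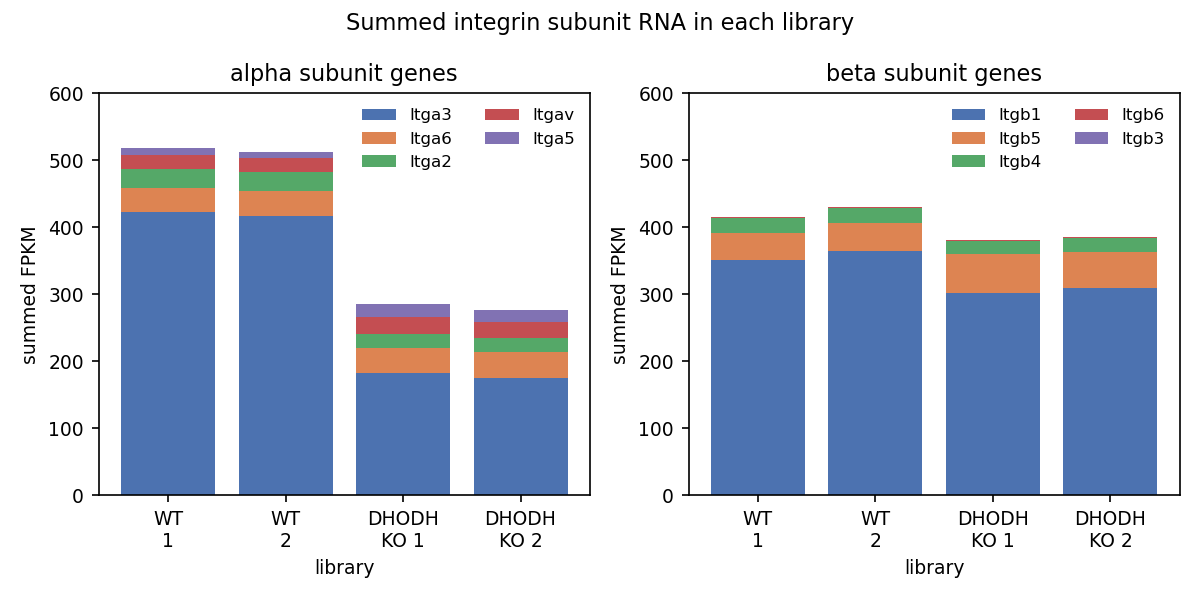
Summed FPKM of the 5 alpha subunit genes (left) and the 5 beta subunit genes (right) in each library, stacked by gene. The alpha sum is 513 to 518 FPKM in WT and 276 to 285 FPKM in DHODH KO, while the beta sum stays between 381 and 430 FPKM.

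The order of the alpha genes by level was Itga3, Itga6, Itga2, Itgav and Itga5 in WT. In KO, Itgav stood above Itga2, and Itga5 remained last but came near Itga2, at 17.5 against 20.8 FPKM. The beta order was Itgb1, Itgb5, Itgb4, Itgb6 and Itgb3 in both genotypes. In neither genotype did the libraries of neighbours in these orders overlap, which with 2 libraries is a description only. By mean FPKM, Itga3 ranked 127 in WT and 327 in KO among the 16695 genes, and Itgb1 ranked 151 and 179.

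Outside the 10 members, 17 further integrin subunits were looked up, 15 were in the table and most were near 0. Itgb2, the beta subunit of leukocyte integrins, stood at 2.88 and 2.20 FPKM in WT, against 8.65 and 8.48 FPKM in KO, 3.37-fold higher in KO (1.44 ± 0.101, adjusted p = 2.73e-05 by limma). Its alpha partners Itgal, Itgam and Itgax were at most 0.0397 FPKM in any library, and Ptprc, the pan-leukocyte marker CD45, was at most 0.0393 FPKM. Of 10 leukocyte markers, 8 were in the table, and they summed to 1.72 and 2.71 FPKM in WT and 3.84 and 7.77 FPKM in KO, higher in KO and highest in DHODH KO replicate 2, and their part in the Itgb2 value was not tested. Without DHODH KO replicate 2 the log2 fold change of Itgb2 was 1.45. Itga7, a laminin receptor subunit of muscle, was 2.78 FPKM in both WT libraries and 2.11 and 2.24 FPKM in KO (-0.25 ± 0.084, adjusted p = 0.0323), a call lost without any 1 of the 4 libraries (adjusted p between 0.0509 and 0.113), with 8 skeletal muscle markers summing to 16.4 and 17.8 FPKM in WT and 10.5 and 23.2 FPKM in KO. Itga1, another collagen receptor alpha subunit, was below the minimum for testing at 0.369 and 0.391 FPKM in WT and 1.23 and 1.49 FPKM in KO. Itga8, an RGD-binding subunit, was likewise untested at 0.371 and 0.236 FPKM in WT and 1.34 and 1.19 FPKM in KO. For both genes the KO values lay above the WT values. Both were named for a mean of at least 1 FPKM in either genotype, while their mean over all libraries was below 1 FPKM. A difference between the genotype means was therefore built into their choice.

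The genes of matrix ligands went both ways, 11 of 20 tested genes being higher and 8 lower in KO (10 and 8 without DHODH KO replicate 2), with a median log2 fold change of 0.34. The shares called were 55% higher and 40% lower, beside 35.6% and 29.1% of all genes tested. Among the laminin chains, Lamb2 was 2.20-fold higher in KO (1.05 ± 0.053, adjusted p = 7e-06 by limma). Lamb1 was 1.48-fold higher in WT. Ligands of RGD-binding integrins also went both ways. Mfge8, a secreted αvβ5 ligand, was 2.23-fold and the matricellular gene Ccn1 1.73-fold higher in KO. Spp1, the osteopontin gene, averaged 437 ± 6.89 FPKM in WT against 216 ± 15.5 FPKM in KO (-1.02 ± 0.050, adjusted p = 6.18e-06 by limma), and Ccn2 and Ltbp1, whose product holds latent TGF-beta in the matrix, were 2.14-fold and 2.33-fold higher in WT. Fn1, the fibronectin gene and named here as the ligand of α5β1 outside the fixed naming rule, was 377 and 373 FPKM in WT and 272 and 256 FPKM in KO (-0.50 ± 0.038), opposite in direction to Itga5.

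Of 16 tested regulators of integrin activation, 6 were higher and 9 lower in KO (5 and 8 without DHODH KO replicate 2), with a median log2 fold change of -0.32. Those called made up 37.5% higher and 56.25% lower, beside 35.6% and 29.1% of all genes tested. Tln1, the talin gene, whose product switches integrins to the active state, was 80.0 and 80.5 FPKM in WT, against 56.5 and 54.0 FPKM in KO (-0.53 ± 0.039, adjusted p = 3.44e-05 by limma). Fermt1, a kindlin gene that works beside talin, was 1.59-fold higher in WT, and Flna, a filamin gene whose product binds beta tails and actin, was 1.43-fold higher in WT. Higher in KO were Dab2, a clathrin adaptor of integrin uptake, by 1.93-fold, Kank1 and Kank2, talin-binding scaffold genes, by 2.66-fold and 1.57-fold, and the small GTPase gene Rap1a by 1.19-fold.

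Focal adhesion adaptors and kinases were divided, 10 of 25 tested genes being higher and 11 lower (9 and 11 without DHODH KO replicate 2), with a median log2 fold change of -0.09. In percent this was 40% higher and 44% lower, beside 35.6% and 29.1% of all genes tested. Src, a kinase at adhesions, averaged 27.5 ± 0.193 FPKM in WT against 16.2 ± 0.427 FPKM in KO (-0.73 ± 0.046, adjusted p = 1.81e-05 by limma), and Vcl, which links talin to actin, was 1.54-fold higher in WT. The tensin genes Tns3 and Tns4 were 1.87-fold and 1.72-fold higher in WT, while Tns2 was 1.43-fold higher in KO. Nedd9, a scaffold of the FAK and Src pathway, was 1.94-fold higher in KO, and Pxn, the paxillin gene, and Git1 were each 1.31-fold higher.

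Of 14 tested hemidesmosome and membrane partners, 8 were higher and 2 lower in KO, with a median log2 fold change of 0.21. The tetraspanin genes Cd63, Cd81 and Cd9 were 1.37-fold, 1.54-fold and 1.29-fold higher in KO, and Bsg, the basigin gene, 1.31-fold. Plec, the plectin gene, whose product ties α6β4 to keratin filaments, averaged 56.4 ± 0.908 FPKM in WT against 39.1 ± 0.317 FPKM in KO (-0.52 ± 0.038, adjusted p = 3.63e-05 by limma), and the syndecan gene Sdc1 was 1.26-fold higher in WT. Of 15 tested trafficking genes, 6 were higher, 1 lower and 8 not called, with a median of 0.10. Rab5a, an early endosome GTPase gene, was 1.64-fold and Vps35, the retromer gene, 1.36-fold higher in KO, with Rab11a of the recycling endosome 1.22-fold and the microtubule-binding gene Clasp1 1.98-fold. Arf6, a GTPase gene of membrane recycling, was 1.39-fold higher in WT. Together the 6 lists held 92 tested genes, 42 higher and 32 lower (39 and 30 without DHODH KO replicate 2), 45.7% and 34.8%, beside 35.6% and 29.1% of all genes tested.

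**Figure D4:**
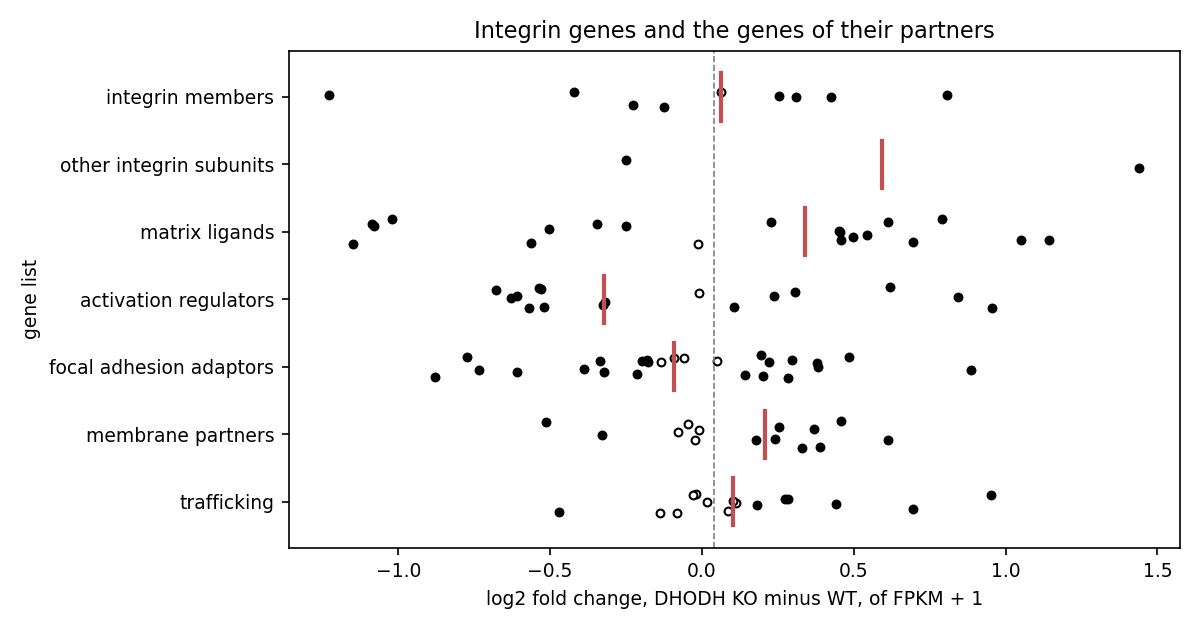
Log2 fold change of log2(FPKM + 1), DHODH KO minus WT, of each tested gene on the member list and the 6 other lists. Filled points were called, red bars are list medians, and the dashed line is the median of all genes tested (0.04). The regulators of activation have the lowest median, -0.32, and both signs occur on every list.

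The genes whose centred log2(FPKM + 1) values over the 4 libraries lay closest to those of Itga3 were Nt5e, Cenpf and Aurka, at Euclidean distances of 0.0382, 0.0448 and 0.0678. Nt5e encodes the ecto-nucleotidase CD73, Cenpf a centromere protein and Aurka a mitotic kinase. Their log2 fold changes were -1.24, -1.19 and -1.25, close to that of Itga3 because of how they were picked. With 2 libraries per genotype, such closeness does not show shared regulation, which was not tested.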

How the data were processed

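RNA-seq libraries of 4T1 cells, 2 WT and 2 DHODH KO, were made, per the labels' protocols, from 1.3 ug of TRIzol-extracted total RNA with Illumina methods. The deposited values are FPKM computed by the authors, and per the submitters' processing notes fastp, HTSeq and GRCm39 were used. For the aligner, annotation and strand setting the entry is: not given in the sources used here. Overlapping or antisense genes cannot be told apart. Columns were matched to samples by name.

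Whole reads were recovered from the FPKM steps, with a tolerance of 0.002 reads, for 16683 genes (99.9%). Library reads were taken as the numbers that made gene lengths whole within 0.02 bases, which 16558 genes met. Read numbers are the smallest that fit and can be too low by a common factor.

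Genes with a mean of at least 1 FPKM (10170) were fitted with limma-trend on log2(FPKM + 1), two-sided and without covariates, and called at an adjusted p of 0.05 (limma 3.58.1, R 4.3.3). The procedure was run on simulated data to check that it recovered planted log2 fold changes in the mean. That run does not check the calls made on the real libraries. Tables and figures used Matplotlib 3.10.9 and pandas 2.3.3 with NumPy 2.4.6 under Python 3.11.15. Promoter sequences are from RefSeq on GRCm38.p6.

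The members and lists were chosen with earlier results of these data known. Named genes were all members, other integrins with at least 1 FPKM in either genotype, from each list up to 4 called genes per direction in order of adjusted p, and the 3 genes most like the member with the largest change. Some genes that this rule names are not reported here. Alternatives were another pseudocount, filter, scaling or variance model, a replicate block, voom on recovered reads, and leaving out each library.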

Additional observations from a re-analysis of the deposited data

How the results depend on the processing

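The calls of Itga3, Itga5, Itga2, Itgav, Itgb1 and Itgb5 kept their direction and their side of the threshold in all 14 alternatives, and Itga6 was not called in any. Log2 fold changes ran from -1.28 to -1.20 for Itga3, 0.74 to 0.87 for Itga5, -0.47 to -0.41 for Itga2, 0.21 to 0.28 for Itgav, -0.28 to -0.20 for Itgb1 and 0.37 to 0.47 for Itgb5. Itgb4 lost its call in 7 of 14 alternatives (adjusted p from 0.0121 to 0.223 by limma over all of them), and Itgb6 in 5 of 13 (0.00933 to 0.143). The cause was not tested. The difference in the Itga3 to Itga5 log2 ratio, with the pseudocount added to both genes, was -2.09 with a pseudocount of 0.1 and -1.96 after quantile normalization. Same-numbered libraries deviated together only weakly (r = 0.046 across 10170 genes, which are not independent replicates), and nothing says that the numbers pair cultures. With the replicate block 4 members were higher and 3 lower, Itgb4 losing its call (adjusted p = 0.0588 by limma). Median-ratio scaling and quantile normalization moved the median log2 fold change of all genes from 0.04 to -0.01, and called 3180 genes higher and 3374 lower and 3117 higher and 3392 lower, against 3618 and 2958. With no filter, 5 of the 15 other integrin subunits in the table were called higher and 0 lower. In the main fit only 2 of them were tested, 1 called higher and 1 lower. Of the 10170 genes of the main fit, 2919 were called higher and 2382 lower with no filter. These counts leave out the genes below the filter, among them most of the other subunits, so they give no share to set beside the 5 called. The fewest reads stood behind Itgb3, at least 15 to 48 per library, and Itgb6, at least 232 to 392, and whether depth limits their calls was not tested. With 2 libraries per genotype, leaving 1 out assumes that the lone library varies like the others.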

Other observations

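Pathways of the authors' annotation column, chosen after the data were seen and counted without the 10 members, held genes of both directions. For ECM-receptor interaction 13 of 26 tested genes were higher and 10 lower in DHODH KO, with a median log2 fold change of 0.18. For focal adhesion 49 of 124 were higher and 45 lower (median 0.06), and for regulation of the actin cytoskeleton 49 of 134 were higher and 46 lower (median 0.04), beside 35.6% and 29.1% of all genes tested.

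The genes of this paragraph were named after their values were seen. Tns1, a tensin gene below the minimum for testing, stood at 0.0662 and 0.0443 FPKM in WT, against 0.919 and 1.22 FPKM in KO. Nid1, the nidogen gene of basement membranes, stood at 0.271 and 0.181 FPKM in WT, against 0.650 and 0.750 FPKM in KO. In contrast, the fibrillar collagen genes Col1a1, Col1a2 and Col3a1 measured 1.77, 1.15 and 2.95 FPKM in DHODH KO replicate 2 and at most 0.209, 0.0829 and 0.0356 FPKM in the other 3 libraries, the library that also held the heart muscle and fibroblast marker transcripts.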
